A study of Mus musculus with 8 samples.

Results

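A set of 10 imprinted loci that encode growth regulators and long noncoding RNAs were followed in mouse soleus muscle: H19, Igf2, Meg3, Rian, Mirg, Dlk1, Peg3, Plagl1, Grb10 and Cdkn1c. They were taken by gene symbol, and all 10 were found among the 24033 genes of the deposited table. Of these, 8 had a mean of at least 1 FPKM (fragments mapped to a gene, scaled by transcript length and library size) over the libraries and entered the test with 12535 genes in all. Dlk1 and Plagl1 lay under that minimum and are described by their values. The soleus is a slow, oxidative muscle of the lower hindlimb. RNA was sequenced from 4 MyoCre mice, labelled Myogenin-Cre/+, and from 4 K15-SKO mice, labelled Myogenin-Cre/+;K15F/F, all 2 months old. Both genotypes therefore carried the Cre recombinase under myogenin control, which acts in skeletal muscle cells as they differentiate, and the K15-SKO mice carried floxed Klf15 alleles on both chromosomes in addition. KLF15 is a zinc finger transcription factor, and the series asks which transcripts depend on it in this muscle. The labels do not say whether the mice shared a litter or a sequencing run. The p-values measure the spread between the libraries, in which differences between mice and technical differences cannot be told apart.

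Klf15 itself measured 44.5, 49.8, 49.1 and 22.8 FPKM in MyoCre replicates 1 to 4 and 15.7, 19.3, 16.7 and 13.1 FPKM in K15-SKO replicates 1 to 4, so the genotypes did not overlap. The summed FPKM of a library ran from 519884 to 652275. Soleus fibre markers such as Myh7, the slow myosin heavy chain, were abundant in every library, with Myh7 at 669 to 2280 FPKM over both genotypes. K15-SKO replicate 3 stood apart from the other 7 libraries. In it, 47.2% of the genes tested had their lowest value of the series, and its values depended on the GC content of the transcript. With all genes split into 10 equal bins by GC content, the lowest bin lay at a median of -0.81 on the log2 scale against the mean of the other 7 libraries, and the highest bin at 0.07. MyoCre replicate 4 ran the other way, from 0.33 to -0.44, as did K15-SKO replicate 4, from 0.33 to -0.37. Results below are given with and without K15-SKO replicate 3 where it bears on them. Because whole muscle was sequenced, fewer cells of a type and less RNA per cell cannot be told apart.

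Imprinted genes are expressed mainly from the chromosome inherited from 1 parent, and the parental copies differ in DNA methylation at control regions. Many of them set fetal and postnatal growth. Their levels fall after birth in most tissues, and skeletal muscle is known as a tissue that keeps H19 and the maternal transcripts of the Dlk1-Dio3 region into adult life. FPKM values do not separate the parental copies, so the measurements below are totals over both.

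The genes lie in a few clusters. On the mm10 assembly (GENCODE vM21), H19 spans chr7:142575529-142578143 and Igf2 spans chr7:142650766-142666816, both on the minus strand. Between them and including both, the interval of 91288 bp held 4 genes of the table. Dlk1 (chr12:109452823-109463336), Meg3 (chr12:109541001-109571726), Rian (chr12:109603940-109661716) and Mirg (chr12:109729764-109749460) follow each other on the plus strand. The interval from Dlk1 to the end of Dio3, 828275 bp long, held 10 genes of the table, of which 4 had a mean of at least 1 FPKM. Cdkn1c (chr7:143458339-143461050) and Peg3 (chr7:6703892-6730431) lie elsewhere on chromosome 7, on the minus strand. Plagl1 (chr10:13060504-13131694) is on the plus strand and Grb10 (chr11:11930508-12038683) on the minus strand.

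Some of the loci carry microRNAs (miRNAs) inside their transcription units. RefSeq places 39 mature miRNAs from 21 miRNA genes within H19, Igf2, Meg3, Rian and Mirg, with 26 of them in Mirg, 6 in Rian, 3 in Meg3 and 2 each in H19 and Igf2. None of the 21 miRNA genes had a row in the table, so the values below describe the host transcripts only. The sequences below show what each host carries, with the seed (bases 2 to 8) in capitals and the sequence as RefSeq gives it on GRCm38.p6. The miR-675 pair is cut from an exon of H19, the miR-483 pair lies in an intron of Igf2, miR-770-5p in an exon of Meg3 and miR-370-3p in an intron of Rian. The last 2 lines, both from introns of Mirg, are the pair that shares a seed, GGUUGCC.
miR-675-5p: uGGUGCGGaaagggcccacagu
miR-675-3p: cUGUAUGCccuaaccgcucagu
miR-483-5p: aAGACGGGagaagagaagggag
miR-483-3p: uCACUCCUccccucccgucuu
miR-770-5p: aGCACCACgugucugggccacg
miR-370-3p: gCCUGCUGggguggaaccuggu
miR-453: aGGUUGCCucauagugagcuugca
miR-496a-5p: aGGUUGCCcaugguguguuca

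KLF proteins are known to bind GT boxes with the core CACCC, so the promoter windows of the loci were searched for these letters on both strands. RefSeq windows, from 250 bases before to 50 bases after an annotated start, were matched for 8 of the 10 genes and gave 13 windows. CACCC was found in 10 of the 13, and in 57.5% of the 32851 windows of that length in the RefSeq table. The windows of the 3 noncoding RNAs of the Dlk1-Dio3 region and of Peg3 are shown because the levels of these genes are compared with each other below. They are written 5′ to 3′ on the strand of the gene, with CACCC and its reverse complement GGGTG in capitals. Meg3 has 2 windows, and the one near the start of the GENCODE model is shown. It (chr12:109540746-109541045) held CACCC 4 times and also TATAAA 2 times, a TATA box sequence found in 13.6% of windows, and the other Meg3 window (chr12:109545148-109545447) held CACCC 7 times and no TATAAA. Rian (chr12:109603695-109603994) held no CACCC, and Mirg (chr12:109734731-109735030) and Peg3 (chr7:6730370-6730669) held it 2 times each. The Mirg window starts inside the GENCODE model of the gene and contains the miR-668 pair. A match is a description of the letters, and binding of KLF15 was not measured.
Meg3: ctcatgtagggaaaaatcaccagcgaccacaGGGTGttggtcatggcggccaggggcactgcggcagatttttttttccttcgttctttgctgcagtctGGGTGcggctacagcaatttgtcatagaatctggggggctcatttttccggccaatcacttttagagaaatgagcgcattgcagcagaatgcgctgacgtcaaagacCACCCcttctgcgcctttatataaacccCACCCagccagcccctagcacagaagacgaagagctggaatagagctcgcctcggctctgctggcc
Rian: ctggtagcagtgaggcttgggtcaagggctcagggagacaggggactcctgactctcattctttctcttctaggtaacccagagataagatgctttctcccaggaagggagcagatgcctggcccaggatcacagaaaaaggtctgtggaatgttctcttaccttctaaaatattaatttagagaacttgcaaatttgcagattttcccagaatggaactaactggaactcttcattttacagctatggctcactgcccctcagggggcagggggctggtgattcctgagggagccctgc
Mirg: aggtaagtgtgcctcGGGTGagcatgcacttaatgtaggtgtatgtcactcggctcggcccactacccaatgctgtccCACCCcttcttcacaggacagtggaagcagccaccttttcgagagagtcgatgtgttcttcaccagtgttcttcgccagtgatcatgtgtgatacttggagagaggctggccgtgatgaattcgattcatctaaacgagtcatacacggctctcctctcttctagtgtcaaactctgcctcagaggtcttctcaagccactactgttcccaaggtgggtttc
Peg3: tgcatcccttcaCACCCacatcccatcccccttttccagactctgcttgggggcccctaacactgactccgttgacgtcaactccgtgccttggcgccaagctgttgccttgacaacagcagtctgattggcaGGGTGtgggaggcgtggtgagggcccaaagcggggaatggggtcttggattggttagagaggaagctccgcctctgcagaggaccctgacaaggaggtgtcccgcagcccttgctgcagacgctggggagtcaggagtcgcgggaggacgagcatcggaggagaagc

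No gene of the 8 tested passed the test between genotypes. In limma with Benjamini-Hochberg adjustment over all genes, 0 of the 8 had an adjusted p under the threshold of 0.05, where 0.55% of all genes did (69 genes, of which 46, or 0.367%, were higher and 23, or 0.183%, lower in K15-SKO). Leaving out genes listed at 0 in a whole genotype lowered the count over all genes from 69 to 12 of 12376. The 8 imprinted genes had values in both genotypes, so the 0.55% includes genes of a kind that none of them is. At an unadjusted limma p under 0.05, 0 of the 8 passed as well, against 543 of all genes (4.33%). The libraries of the genotypes overlapped for all 8, while 3.35% of all genes showed no overlap. The median log2 fold change of the 8 genes was 0.13 beside -0.12 for all genes tested, and 6 of the 8 were positive where 23.0% of all genes were. Without K15-SKO replicate 3 the median of the genes left in the fit was -0.07, beside -0.04 for all genes. Scaling by the median of ratios to the gene means moved the median of all genes to 0.00 and that of the imprinted genes to 0.27.

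**Figure D1:**
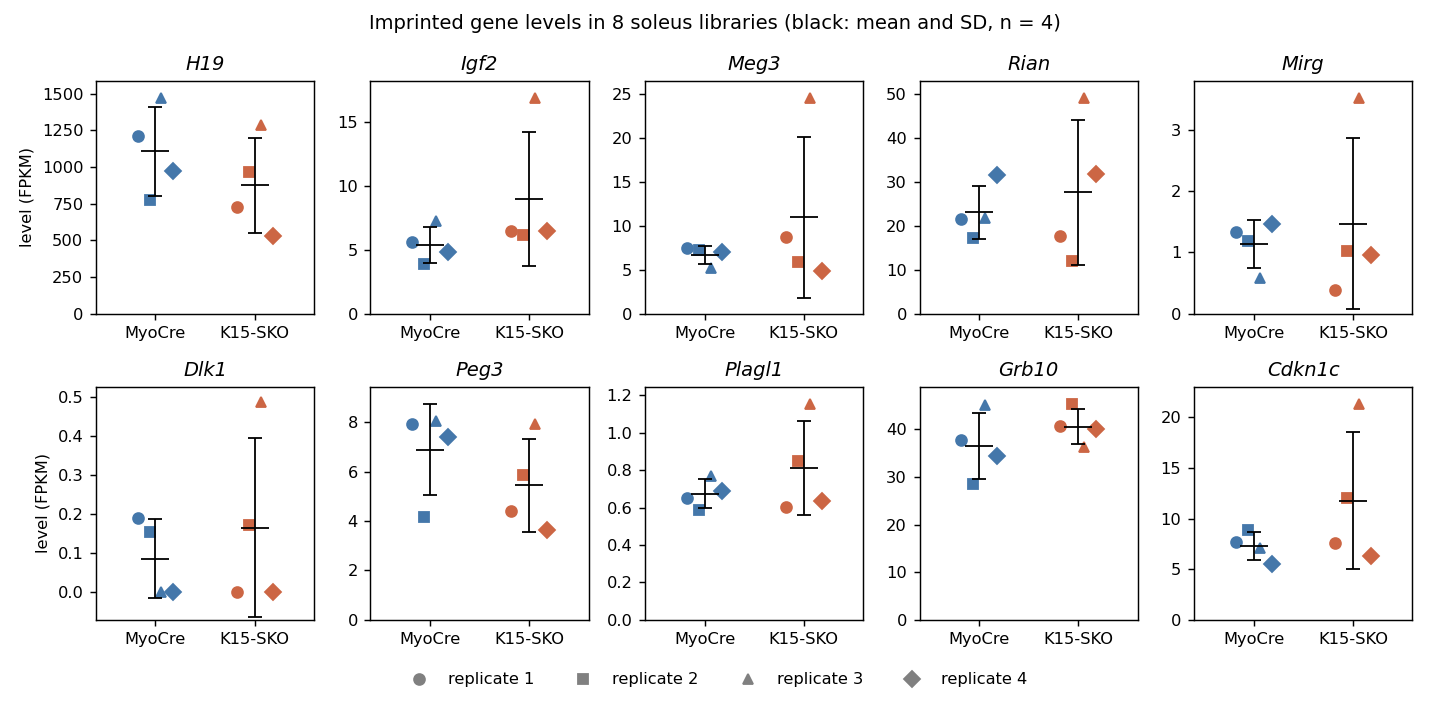
Level of each imprinted gene in FPKM (vertical axes, each from 0 or below) in MyoCre and K15-SKO soleus, with 1 point per library, marker shape for the replicate number, and black bars for the mean and SD of 4 libraries. K15-SKO replicate 3 (orange triangle) is the highest point for 7 of the 10 genes, and Igf2 reaches 16.9 FPKM there against 6.13 to 6.49 FPKM in the other K15-SKO libraries.

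H19, a spliced and polyadenylated noncoding RNA made from the maternal chromosome, was by far the most abundant of these transcripts and took place 74 among the 12535 genes by mean FPKM. It measured 1208, 774, 1468 and 971 FPKM in MyoCre replicates 1 to 4 and 727, 962, 1283 and 527 FPKM in K15-SKO replicates 1 to 4. The highest library was a MyoCre one and the lowest a K15-SKO one, and the ranges overlapped over most of their length. The mean was 1105 ± 300.02 FPKM over MyoCre and 875 ± 325 FPKM over K15-SKO mice (SD, n = 4 each). The log2 fold change, K15-SKO minus MyoCre on log2(FPKM + 0.5), was -0.37 (SE 0.28, limma adjusted p = 0.957). Its size depended on single libraries: it was -0.58 (SE 0.27) without K15-SKO replicate 3, -0.22 when MyoCre replicate 3 was left out and -0.16 when K15-SKO replicate 4 was.

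Igf2, the fetal growth factor made from the paternal chromosome, was far below H19 in every library. It measured 5.63, 3.92, 7.25 and 4.84 FPKM in MyoCre replicates 1 to 4. In K15-SKO replicates 1 to 4 it measured 6.47, 6.13, 16.9 and 6.49 FPKM. The other 3 K15-SKO libraries, without replicate 3, lay close together, above 3 of the 4 MyoCre libraries and below MyoCre replicate 3. The log2 fold change was 0.58 (SE 0.30, adjusted p = 0.957, unadjusted p = 0.0767), the smallest unadjusted p of the 8 genes. It fell to 0.25 (SE 0.19) without K15-SKO replicate 3, with K15-SKO then at 6.36 ± 0.20 FPKM (SD, n = 3) and MyoCre at 5.41 ± 1.41 FPKM (SD, n = 4).

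In the Dlk1-Dio3 region, Meg3, Rian and Mirg are maternal noncoding RNAs: Meg3 is a nuclear long noncoding RNA, Rian a host of small nucleolar RNAs, and Mirg a host of miRNAs. Meg3 measured 7.43, 7.23, 5.18 and 7.005 FPKM in MyoCre replicates 1 to 4 and 8.66, 5.92, 24.5 and 4.83 FPKM in K15-SKO replicates 1 to 4. Rian measured 21.6, 17.3, 21.8 and 31.5 FPKM in the MyoCre replicates and 17.8, 11.9, 49.04 and 31.8 FPKM in the K15-SKO replicates, in the same order. Mirg measured 1.33, 1.18, 0.584 and 1.46 FPKM in the MyoCre replicates and 0.386, 1.02, 3.51 and 0.960 FPKM in the K15-SKO replicates. For all 3 RNAs the highest library was K15-SKO replicate 3, and the other K15-SKO libraries spread around the MyoCre values. Log2 fold changes were 0.40 (SE 0.43, adjusted p = 0.957) for Meg3, 0.09 (SE 0.39, adjusted p = 0.980) for Rian and 0.07 (SE 0.40, adjusted p = 0.988) for Mirg. Without K15-SKO replicate 3 they were -0.07 for Meg3 and -0.25 for Rian, and Mirg dropped below the minimum mean. The 3 RNAs did not keep a fixed proportion to each other. The ratio of Meg3 to Rian, both in FPKM, ran from 0.222 to 0.417 over the MyoCre libraries and from 0.152 to 0.499 over the K15-SKO libraries.

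Dlk1, a transmembrane inhibitor of adipocyte differentiation made from the paternal chromosome of the same region, was barely detected. It measured 0.190 and 0.153 FPKM in MyoCre replicates 1 and 2 and was listed at 0 in replicates 3 and 4. In K15-SKO muscle it was listed at 0 in replicates 1 and 4 and measured 0.173 and 0.486 FPKM in replicates 2 and 3. Its value in MyoCre replicate 1 stood for at most 8.95 fragments by the depth estimated from the table, so the order of these libraries is not resolved. Of the other protein-coding genes of the region, Rtl1 reached at most 0.013 FPKM and Dio3 at most 0.123 FPKM in any library.

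Peg3, a paternally expressed zinc finger protein, measured 7.93, 4.16, 8.07 and 7.40 FPKM in MyoCre replicates 1 to 4. In K15-SKO replicates 1 to 4 it measured 4.40, 5.86, 7.92 and 3.66 FPKM. The log2 fold change was -0.32 (SE 0.26, adjusted p = 0.957), and it was -0.51 (SE 0.24) without K15-SKO replicate 3, -0.53 when MyoCre replicate 2 was left out and -0.17 when K15-SKO replicate 4 was. GC centring, described below, gave -0.16. As for H19, the lowest library was K15-SKO replicate 4 and the highest MyoCre replicate 3. Plagl1, a zinc finger protein that regulates other imprinted genes, stayed between 0.588 and 1.15 FPKM in all 8 libraries, with means of 0.674 ± 0.08 FPKM over MyoCre and 0.810 ± 0.25 FPKM over K15-SKO mice (SD, n = 4 each).

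Grb10 and Cdkn1c act against growth: GRB10 binds the insulin and IGF1 receptors and damps their signal, and CDKN1C (p57) inhibits cyclin-dependent kinases. Grb10 measured 37.9, 28.5, 45.1 and 34.3 FPKM in MyoCre replicates 1 to 4 and 40.6, 45.3, 36.2 and 40.1 FPKM in K15-SKO replicates 1 to 4. It varied least of the 8 genes, and K15-SKO replicate 3 was the lowest K15-SKO library. Its log2 fold change was 0.17 (SE 0.18, adjusted p = 0.957), with an interval of -0.23 to 0.56 at 95% confidence, and it was 0.057 without MyoCre replicate 2 and 0.27 without MyoCre replicate 3. Cdkn1c measured 7.71, 8.88, 7.11 and 5.53 FPKM in the MyoCre replicates and 7.56, 12.01, 21.3 and 6.29 FPKM in the K15-SKO replicates. Its log2 fold change was 0.52 (SE 0.32, adjusted p = 0.957) and 0.19 (SE 0.23) without K15-SKO replicate 3. A gene model on the opposite strand of Cdkn1c, Gm44732, was at most 0.881 FPKM in 7 libraries and 3.36 FPKM in K15-SKO replicate 3, and without a stated strand setting the reads of the pair cannot be told apart.

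**Figure D2:**
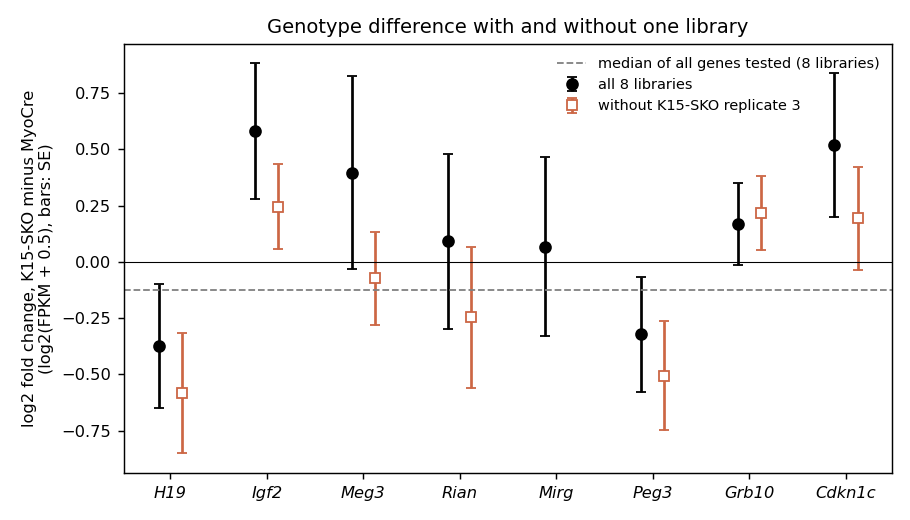
Log2 fold change of each tested gene (K15-SKO minus MyoCre, bars SE), with all 8 libraries (filled) and without K15-SKO replicate 3 (open), where Mirg falls below the minimum mean. The dashed line is the median of all genes tested, -0.12, and Igf2 moves from 0.58 to 0.25 when that library is left out.

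The largest departures of these genes lay in 1 library and not between the genotypes. K15-SKO replicate 3 was the highest of the 8 libraries for 7 of the 10 genes, and for 5 of the 8 tested, while it was the highest for 6.73% of all genes tested. It was at least 2 times the mean of the other 7 libraries for 6 of the 10, and for 5 of the 8 tested, against 1.46% of all genes. Mirg passed the minimum mean only through this library. The ratio to the other 7 was 3.71 for Meg3, 3.56 for Mirg, 2.90 for Igf2, 2.70 for Cdkn1c and 2.23 for Rian. It was 1.68 for Plagl1, 1.35 for H19, 1.34 for Peg3 and 0.933 for Grb10, and for Dlk1 it was 6.59 at values near the detection limit. In no other library did any of the 8 tested genes reach 2 times the mean of the rest.

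The genes that stood highest in that library lay in different GC bins. Rian has the lowest GC content of them, 35.8%, in GC bin 1 of 10, where the median gene of K15-SKO replicate 3 lay at -0.81, and Rian lay at 1.14 on the same log2 scale. Meg3 (49.2% GC, bin 5) lay at 1.81, Mirg (51.9%, bin 7) at 1.43, Igf2 (55.8%, bin 9) at 1.46 and Cdkn1c (59.4%, bin 10) at 1.38. Grb10, with a GC content of 48.5% in the same bin as Meg3, lay at -0.10. After the median of each GC bin had been taken out of each library, the log2 fold changes between genotypes were -0.31 for H19, 0.64 for Igf2, 0.54 for Meg3, 0.26 for Rian, 0.17 for Mirg, -0.16 for Peg3, 0.31 for Grb10 and 0.55 for Cdkn1c, and 0 of 8 passed the threshold.

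**Figure D3:**
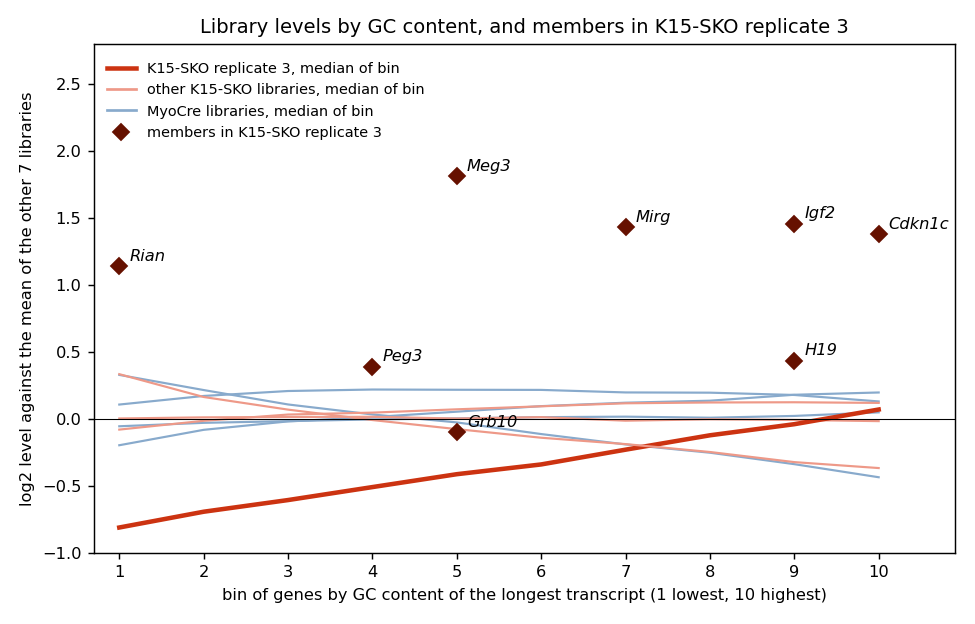
Level in each library against the mean of the other 7 libraries (log2, vertical axis) for genes grouped into 10 bins by the GC content of their longest transcript; lines are medians of a bin and diamonds the imprinted genes in K15-SKO replicate 3. The median line of that library climbs from -0.81 to 0.07, and Rian, Meg3, Mirg, Igf2 and Cdkn1c lie more than 1 log2 unit above 0.

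Markers of other cells in that library are given here for comparison. Of the 6 markers of new or immature fibres in the table, 3 were highest in K15-SKO replicate 3: Myh8, the perinatal myosin heavy chain, at 2.44 times the mean of the other 7, Myl4 at 1.29 times, and Chrng, the fetal acetylcholine receptor subunit, at under 0.2 FPKM. The summed level of that list was 31.4 FPKM in this library. That was within the 19.2 to 31.6 FPKM of the MyoCre libraries and above the 16.8 to 28.8 FPKM of the other K15-SKO libraries. Of 9 endothelial and mural markers, 3 were highest there, with Cldn5 at 2.20 times and Tie1 at 1.74 times, and their sum was 328 FPKM against 352 to 373 FPKM in the other K15-SKO libraries and 299 to 356 FPKM in MyoCre muscle. Of 8 satellite cell markers, 1 was highest there and 1 was at least 2 times the mean of the other 7: Cdh15, at 2.92 times, is listed at 0 in all MyoCre libraries and measured 4.32 to 7.89 FPKM in the K15-SKO libraries. The mean behind the 2.92 includes those MyoCre zeros, so this ratio does not set the library apart from the other K15-SKO libraries. Pax7, the defining transcription factor of satellite cells, was at 0.708 times the mean of the others. Over the tested markers of each list, the median ratio in this library was 1.29 for immature fibre, 1.19 for endothelial and mural and 0.951 for satellite cell markers. The lowest ratios in these lists were 0.732, 0.679 and 0.395. In the other lists, this library was highest for 0 of 10 soleus fibre (median ratio 0.699) and 0 of 10 fibroblast markers (0.942). It was highest for 0 of 7 tendon (0.792), 0 of 5 adipocyte (0.945) and 1 of 5 Schwann cell markers (0.924). The part of these cells in the result was not tested. Among other imprinted genes, 0 of 31 tested reached 2 times the mean of the other libraries in K15-SKO replicate 3, and the highest ratio was 1.91. Since 1.46% of all genes reached 2 times, 0 of 31 is near the share of all genes. Of the 31, 3 were highest there, a larger share than the 6.73% of all genes. Their median ratio was 0.749, beside 2.47 for the 8 genes above. Those 8 include Mirg, which passed the minimum mean only through this library. The median of all genes tested lay at -0.36 in this library, on the log2 scale against the mean of the other 7.

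Over the 8 libraries the genes were compared in all 28 pairs. Pearson's r of log2(FPKM + 0.5) was positive in 24 pairs, with a median of 0.36, and without K15-SKO replicate 3 it was positive in 16, with a median of 0.01. Each gene was also compared with every other gene tested, which gave 100272 pairs, and after adjustment over all of them 0.0% passed the threshold by Pearson's r and 0.0% by Spearman's rho. Of the 28 pairs, 0 passed by either measure.

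H19 and Peg3 varied together most closely of the 28 pairs, although they lie far apart on chromosome 7 and are made from opposite parental copies. Pearson's r was 0.94 (two-sided exact permutation p = 0.000198, adjusted p = 0.0995) and Spearman's rho was 0.95 (exact permutation p = 0.00114, adjusted p = 0.192), over 8 libraries. Each took place 2 in closeness to the other among all other genes tested. The value was 0.93 without K15-SKO replicate 3, 0.93 without the 2 libraries farthest from the median of H19 (MyoCre replicate 3 and K15-SKO replicate 4), and 0.93 after each genotype had been centred on its own mean (exact permutation p = 0.00174, unadjusted). Leaving out each library in turn gave 0.92 to 0.97, and GC centring gave 0.94 (adjusted p = 0.461). Both genes were low in MyoCre replicate 2, K15-SKO replicate 1 and K15-SKO replicate 4, and high in MyoCre replicates 1 and 3 and K15-SKO replicate 3.

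The r of the other high pairs depended on K15-SKO replicate 3. Meg3 and Cdkn1c had r of 0.80 (exact permutation p = 0.0568, adjusted p = 0.425, rho 0.55) over 8 libraries and 0.06 without K15-SKO replicate 3. Igf2 and Meg3 went from 0.76 (rho 0.00) to -0.45, and Igf2 and Cdkn1c from 0.75 (rho 0.14) to -0.04. Inside the Dlk1-Dio3 region, Meg3 and Mirg went from 0.74 (exact permutation p = 0.0696, adjusted p = 0.448, rho 0.40) to -0.04. Rian and Mirg went from 0.66 (rho 0.38) to 0.25, and Meg3 and Rian from 0.57 (rho 0.02) to -0.25. With GC centring as well, the values without that library were 0.11 for Meg3 and Mirg, 0.46 for Rian and Mirg and -0.01 for Meg3 and Rian. Igf2 and Grb10 moved in the opposite sense without that library, from 0.29 to 0.94. Rian and Cdkn1c went from 0.21 to -0.95 over the 7 libraries without K15-SKO replicate 3. The last 2 pairs were singled out after all pairs had been seen.

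**Figure D4:**
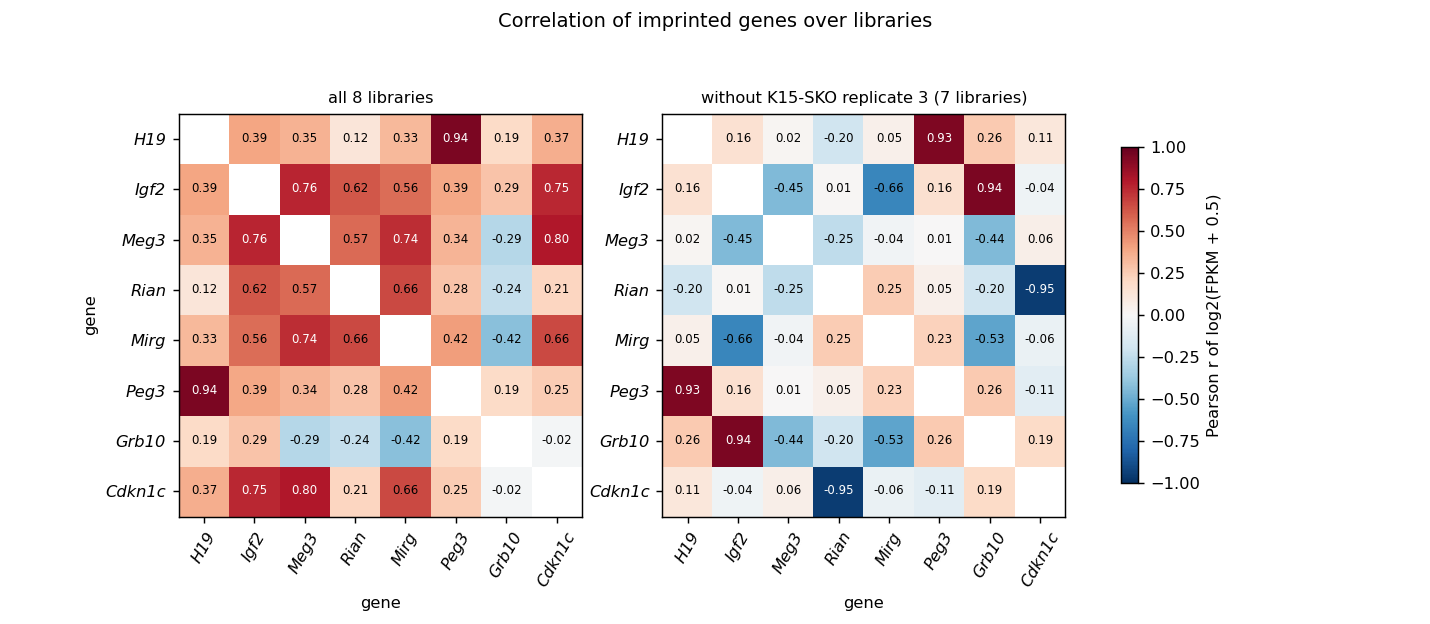
Pearson's r of log2(FPKM + 0.5) for the 28 pairs of tested genes, over all 8 libraries (left) and without K15-SKO replicate 3 (right), with red for positive and blue for negative values. H19 and Peg3 stay at 0.94 and 0.93, while Meg3 and Cdkn1c go from 0.80 to 0.06 and Igf2 and Meg3 from 0.76 to -0.45.

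H19 and Igf2 are read from the same cluster, where shared enhancers act on H19 on the maternal and on Igf2 on the paternal chromosome. Their r over all 8 libraries was 0.39 (exact permutation p = 0.344, adjusted p = 0.753), and 0.79 within genotypes (exact permutation p = 0.0347, unadjusted). Without K15-SKO replicate 3 it was 0.16 (exact permutation p = 0.741, adjusted p = 0.991), and -0.05 with median-of-ratios scaling as well. The ratio of H19 to Igf2, both in FPKM, was 215, 197, 203 and 201 in MyoCre replicates 1 to 4. In K15-SKO replicates 1 to 4 it was 112, 157, 76.02 and 81.2. All K15-SKO libraries lay below all MyoCre libraries, and means were 204 ± 7.58 and 107 ± 37.2 (SD, n = 4 each), a log2 difference of -0.996. Without K15-SKO replicate 3 the difference was -0.85. The ratio was chosen after the values had been seen, so no test of it is given. It was 1 of 2 ratios among the 28 pairs without overlap between genotypes. The other was Igf2 to Peg3, at 0.654 to 0.944 in MyoCre and 1.05 to 2.13 in K15-SKO muscle.

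The same ratios were taken against all genes. Of the 12185 other genes with a value in every library, 0.55% had a ratio of H19 to themselves without overlap between genotypes, and 11.7% had such a ratio to Igf2. Non-overlap was thus common for ratios that contain Igf2. Within MyoCre muscle the ratio of H19 to Igf2 varied with a coefficient of variation (CV) of 3.72%, where H19 alone varied by 27.1% and Igf2 alone by 26.1%, and 0.0164% of genes (Igf2 itself and Slc45a4, at 3.41%) followed H19 that closely there. The counting error of Igf2 was estimated at no less than 4.45% in MyoCre replicate 2 and 6.11% in MyoCre replicate 1, the 2 MyoCre libraries whose depth could be read. The CV of 3.72% is lower than both, but a CV from 4 values is only loosely fixed. Whether counting error by itself could give a CV this low was not tested. In K15-SKO muscle the CV of the ratio was 34.8%.

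**Figure D5:**
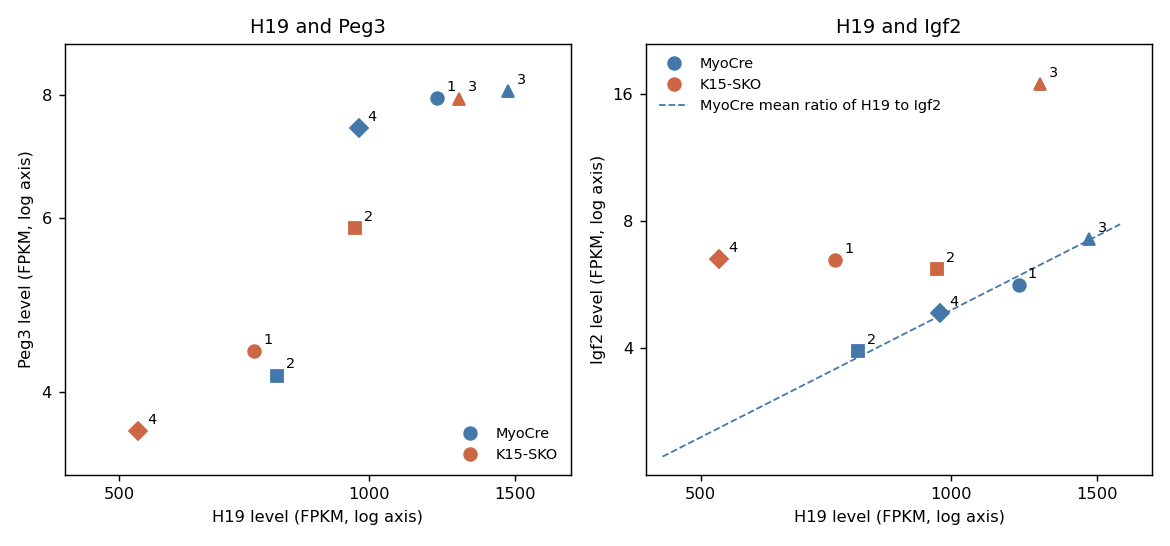
Level of Peg3 (left) and Igf2 (right) against H19 in each library, in FPKM on log axes, with colour for the genotype and digits for the replicate. Peg3 follows H19 in both genotypes, and the 4 K15-SKO libraries lie above the dashed line of the mean MyoCre ratio of H19 to Igf2, 204.

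For each tested gene, the 3 named genes with the highest r over the 8 libraries were listed, as a description of profiles with predicted genes passed over. H19 was closest to Agpat3, a phospholipid-synthesis enzyme (r 0.95, and 0.94 without K15-SKO replicate 3), then to Peg3 and to the pseudogene Rps10-ps1 (0.94). Peg3 was closest to H19, then to Pomk, a kinase of dystroglycan glycosylation (0.93), and to Tmem208 (0.91). Igf2 was closest to Mfng, a modifier of Notch receptors (0.97), Chrnb1, the beta subunit of the muscle acetylcholine receptor (0.91, and 0.95 without K15-SKO replicate 3), and Mif, a cytokine (0.90, and 0.52 without it). Grb10 was closest to Zfp667 (0.93), Aox1, an aldehyde oxidase (0.91), and Arhgap44 (0.90).

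The genes of the Dlk1-Dio3 region had different neighbours. Meg3 was closest to Acot8, a peroxisomal thioesterase (0.96, and 0.76 without K15-SKO replicate 3), Chst7 (0.95) and Snord7 (0.93), a small nucleolar RNA at 197 FPKM in K15-SKO replicate 3 and 0 in the other libraries. Rian was closest to Fzd6, a Wnt receptor (0.95, and 0.97 without K15-SKO replicate 3), Neurl3 (0.93) and Prcp (0.90). Mirg was closest to Vkorc1, the vitamin K epoxide reductase (0.93, and 0.96 without that library), Letmd1 (0.92) and Gpx1 (0.91). Cdkn1c was closest to Cd300lg, an endothelial receptor (0.96, and 0.93 without K15-SKO replicate 3), Hba-a2, an alpha-globin gene of red blood cells (0.94, and 0.79 without it), and Gja4, an endothelial gap junction protein (0.94, and 0.79 without it). Hba-a2 measured 220 FPKM in K15-SKO replicate 3 against a mean of 60.1 FPKM over all 8 libraries, and near-identical globin copies can share reads.

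Among other imprinted genes, 50 of 55 listed were in the table and 31 were tested. None passed the threshold in either direction, beside 0.55% of all genes, and 4 of 31 had an unadjusted p under 0.05, beside 4.33% of all genes. Their median log2 fold change was -0.10, close to the -0.12 of all genes. The smallest p belonged to Nnat, a paternally expressed membrane proteolipid, at 1.82 ± 0.54 FPKM over MyoCre and 0.758 ± 0.39 FPKM over K15-SKO mice (SD, n = 4 each; log2 fold change -0.91, SE 0.26, adjusted p = 0.411). Slc38a4, an amino acid transporter, measured 13.3 ± 1.19 and 9.40 ± 0.72 FPKM (log2 fold change -0.47, SE 0.16, adjusted p = 0.746). Pon3, a lactonase, had a log2 fold change of -0.61 (SE 0.21, adjusted p = 0.768), and Snrpn, a splicing protein, of -0.48 (SE 0.20, adjusted p = 0.957). The libraries of the genotypes did not overlap for Slc38a4, Snrpn and Ppp1r9a, 3 of 31 genes, beside 3.35% of all genes.

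Genes of the IGF system and genes that act on imprints or DNA methylation were followed too. The IGF list holds the receptors, IGF1, the IGF-binding proteins and Igfals, the receptor substrates, and the Igf2bp genes, whose proteins bind RNA. Of these, 12 of 17 were tested, 0 rose and 0 fell (beside 0.367% and 0.183% of all genes). The median log2 fold change was -0.14, beside -0.12 for all genes. Insr, the insulin receptor, measured 24.9 ± 3.36 FPKM over MyoCre and 20.3 ± 2.28 FPKM over K15-SKO mice (SD, n = 4 each). Igf1 measured 9.67 ± 3.33 and 7.40 ± 2.24 FPKM, Igfbp5, the main binding protein of muscle, 22.9 ± 7.96 and 17.03 ± 5.97 FPKM, and Igfbp7 76.4 ± 17.03 and 90.5 ± 27.6 FPKM. Igf2r, the receptor that clears IGF2, measured 25.97 ± 3.66 and 24.9 ± 0.78 FPKM. The list of factors that act on imprints or DNA methylation also holds the Tet genes, whose enzymes oxidize methylated DNA. Of that list, 13 of 18 were tested, 0 rose and 0 fell (beside 0.367% and 0.183% of all genes). Their median was -0.13, beside the same -0.12. The DNA methyltransferase Dnmt3a had the smallest p, at 14.1 ± 2.17 and 10.6 ± 1.06 FPKM (log2 fold change -0.40, SE 0.18, adjusted p = 0.957), and Smchd1, Cbx5 and Zfp445 had log2 fold changes of -0.35, -0.28 and -0.20.

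Other long noncoding RNAs on a set list did not share the high values of K15-SKO replicate 3. Of 10 listed, 7 were tested, 0 rose and 0 fell (beside 0.367% and 0.183% of all genes), and the median log2 fold change was -0.18, beside -0.12 for all genes. Malat1 measured 2065 ± 302 FPKM over MyoCre and 1830.0 ± 386 FPKM over K15-SKO mice (SD, n = 4 each), and Neat1, the core RNA of paraspeckles, 333 ± 42.9 and 283 ± 40.9 FPKM. The ratio of K15-SKO replicate 3 to the other 7 libraries was 0.766 for Malat1, 0.723 for Neat1, 0.674 for Pvt1 and 0.427 for Kcnq1ot1, an imprinted antisense RNA. The corresponding ratio was 3.71 for Meg3, and the median of all genes tested lay at -0.36 on the log2 scale in that library. These ratios were not adjusted for GC content or transcript length. The median in that library ran from -0.81 to 0.07 over the 10 GC bins. Over 10 bins by transcript length it was -0.31 in the shortest and -0.52 in the longest.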

How the data were processed

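RNA from 8 soleus samples was analysed, grouped by the labelled genotype. The deposited values are taken as FPKM, which the authors made with STAR, Cufflinks and Cuffdiff on mm10 per the submitters' processing notes; the unit was inferred, because the header names samples only. For the annotation release, strand setting and library scaling, versions and settings were not given in the sources used here. Of 24033 gene IDs, 23896 matched GENCODE vM21 by stable ID, which gave positions and GC content. Depth was read from the spacing of low values and was clear in 4 libraries (8320000 to 22500000 fragments), blurred in the other 4. The clear libraries were replicates 1 and 2 of both genotypes, and the blurred ones replicates 3 and 4 of both.

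Values were tested as log2(FPKM + 0.5) with limma 3.58.1 in R 4.3.3 (mean-dependent trend, robust estimation), keeping genes whose mean reached 1 FPKM, two-sided, with Benjamini-Hochberg adjustment over 12535 genes and a threshold of 0.05. Dlk1 and Plagl1 were fitted only without the filter. This scale understates changes of low genes. Correlations used all 40320 pairings of the libraries, or 576 within genotypes, in Python 3.11.15 with NumPy 2.4.6. Scripts were tested on simulated data.

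The genes, lists and tests were chosen with earlier results of these data known. The named genes are the 10 loci, Klf15, the 3 genes most alike to each tested locus, and up to 4 genes per list with the smallest p. Further genes were named after their values were seen. Alternatives were pseudocounts, filters, scalings, variance settings, library weights, a replicate block and leaving out each library. GC centring, combined settings and the settings of the H19 to Igf2 ratio were added after seeing the data.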

Additional observations from a re-analysis of the deposited data

Results flagged for a closer look

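In 24 groups of 4 values (the 10 imprinted genes, Klf15 and the ratio of H19 to Igf2, each in both genotypes), 1 sample lay far from the rest of its group by Dixon's criterion at 95%, where chance alone flags about 1 in 20 groups, or 1.2 of 24. Igf2 in K15-SKO replicate 3 measured 16.9 FPKM, and the nearest K15-SKO library measured 6.49 FPKM. The gap was 0.967 of the range of the group. Meg3, Rian, Mirg and Cdkn1c were also highest in that library, with less uniform values in the others.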

How the results depend on the processing

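The count of imprinted genes past the threshold was 0 in all 22 alternative fits, and H19 and Peg3 (negative) and Igf2, Grb10 and Cdkn1c (positive) kept their direction in each; the lowest adjusted p of any of them was 0.279, for H19. The count over all genes, 69, was 39 with a minimum mean of 5 FPKM, 157 with library weights and 12 without genes listed at 0 in a whole genotype; leaving out 1 library gave 59 to 80. The log2 fold change of Meg3 reversed to -0.073 without K15-SKO replicate 3 (highest 0.67, without K15-SKO replicate 4), to -0.027 with median-of-ratios scaling as well, and to -0.019 with GC centring as well. That of Rian reversed to -0.23 with library weights, -0.032 without MyoCre replicate 2, -0.25 without K15-SKO replicate 3 (-0.20 with median-of-ratios scaling and -0.28 with GC centring as well) and -0.041 without K15-SKO replicate 4 (highest 0.42). Mirg reversed to -0.61 with library weights and -0.12 without MyoCre replicate 3 (highest 0.37, without K15-SKO replicate 1). Without K15-SKO replicate 3, r reversed to -0.25 for Meg3 and Rian, -0.038 for Meg3 and Mirg, -0.45 for Igf2 and Meg3, and -0.042 for Igf2 and Cdkn1c; their highest values with 1 library left out were 0.75, 0.95, 0.84 and 0.86. The log2 difference of the H19 to Igf2 ratio was -1.20 to -0.85 with 1 library left out, and -0.95 and -0.92 with pseudocounts of 0.5 and 1. Apart from the settings that leave fewer genes or samples, the cause was not tested. With the replicate number as a replicate block, 78 of all genes and 0 of the imprinted genes passed (Igf2 limma adjusted p = 0.541). The deviations of same-numbered libraries correlated at 0.10, 0.23, 0.00 and 0.28 for numbers 1 to 4. Numbers 1, 2 and 4 matched best with their own number, and MyoCre replicate 3 with K15-SKO replicate 1. The spacing of low values was clear for numbers 1 and 2 and blurred for 3 and 4 in both genotypes. Levels fell with GC content in replicate 4 of both genotypes. The labels name no batch, so the numbers are not taken to pair the mice. A technical split that follows the numbers was not tested, and the exact permutations do not allow for one. Depth limits Dlk1, Mirg and Plagl1 most, where few fragments lie behind a value.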

Other observations

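Short RNA models inside the imprinted loci had values in a single library. Gm24895, a small nucleolar RNA model within Rian, was at 213 FPKM in K15-SKO replicate 1 and listed at 0 in the other 7 libraries. Gm27786, a model on the opposite strand of H19, was at 1937 FPKM in K15-SKO replicate 1 and listed at 0 elsewhere. Igf2os, the antisense model at Igf2, stayed at or below 0.0762 FPKM in every library. Cdh15, a cadherin of satellite cells, was listed at 0 in all 4 MyoCre libraries and measured 4.32 to 7.89 FPKM in K15-SKO muscle. It was the 1 gene past the threshold of 57 tested in the cell type lists (1.75%, beside 0.55% of all genes). The count over all genes, 69, fell to 12 once genes listed at 0 in a whole genotype, as Cdh15 is, were left out. Whether Cdh15 was absent from MyoCre muscle or only not counted there was not tested. Of the other cell type lists, adipocyte markers had a median log2 fold change of -0.58, tendon markers of -0.38, fibroblast markers of -0.36, Schwann cell markers of -0.22, soleus fibre markers of -0.10, immature fibre markers of -0.09 and endothelial markers of 0.13, with 0 genes past the threshold in each.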
